A study of Mus musculus with 30 samples.

Results

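The share that each transcript holds of its gene's counts was compared between day 7 (D7) and day 0 (D0) of retinal organoid formation from mouse induced pluripotent stem cells (iPSCs). A gene entered when it had at least 10 CPM (counts scaled to a common library total) in all 6 libraries and at least 2 transcripts with a mean share of 5% or more on a day. This left 4966 member genes of 45594 genes in the table, with 36749 of its 113468 transcripts. At the limits of the rule, Polr3f entered with a second transcript at 5.00% and Eif2ak3 stayed out at 4.999%, and Rccd1 entered with a lowest level of 10.01 CPM while Gas2 stayed out at 9.997 CPM. The question was which genes changed the form of their RNA, whether or not the gene as a whole rose or fell.

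The D7 group was neural retina dissected from organoids, with 30 organoids per library and 3 libraries labelled as biological replicates. The D0 group was undifferentiated iPSCs, also with 3 libraries. Both came from 1 wild-type Nrl-GFP iPSC clone, in which the promoter of the rod gene Nrl drives green fluorescent protein. Fibroblasts of mice at embryonic day 14.5 had been reprogrammed to give it, with doxycycline-inducible lentiviruses for Oct3/4, Sox2, Klf4 and c-Myc. The D0 cells were kept on feeder cells with LIF and 15% fetal bovine serum. For D7, 3000 cells per well were aggregated in low-adhesion plates by a modified HIPRO protocol, in retinal differentiation medium under 5% oxygen, with Matrigel added at D1. Day, medium, dissection and feeder cells changed together between the groups and cannot be told apart, and in bulk RNA fewer cells of a type and less RNA per cell cannot be told apart either.

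Depth was 17509265 to 19364048 estimated counts per library at D7 and 20425961 to 21957711 at D0. The members held 52.4 to 53.0% of these counts at D7 and 50.3 to 50.6% at D0. Summed over 8 markers of early neural retina such as Rax, Six3 and Pax6, the D7 libraries had 724 to 923 CPM and the D0 libraries 154 to 193 CPM. Of these, 7 were higher in every D7 library than in any D0 library, and Sox2 was lower, at 52.5 to 56.3 CPM at D7, against 150.1 to 189.5 CPM at D0. Summed over 8 pluripotency markers, the D7 libraries had 55.2 to 71.2 CPM and the D0 libraries 4579 to 5088 CPM. The 10 fibroblast markers of feeder cells summed to 84.1 to 99.9 CPM at D7, against 745, 1179 and 1909 CPM in D0 replicates 1, 2 and 3, of which Lum held at most 1.42 CPM. The 9 pigment cell markers summed to 842 to 1027 CPM at D7, against 19.3 to 22.4 CPM at D0. Pmel alone held 542 to 713 CPM of the D7 sums. Mlana was lower at D7, at 0.0571 to 0.213 CPM, against 0.820 to 1.47 CPM at D0. Best1 overlapped between the days, and Rpe65 was at 0 at D7. Likewise 6 forebrain markers summed to 228 to 295 CPM at D7, against 1.13 to 1.46 CPM at D0, with Nkx2-1 at 0 at D7. The part of these other cells in the usage changes was not tested.

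A gene can give several transcripts by starting at another promoter, by joining or skipping an internal exon, by keeping an intron, or by ending at another last exon. Cell types differ in the RNA-binding proteins that make these choices. The ESRP proteins direct an epithelial program of exons, PTBP1 holds many neural exons out of the RNA of non-neural cells, and the NOVA and CELF families act in neurons. An exon whose length is a multiple of 3 can be joined or skipped without shifting the reading frame.

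Of 4957 members that could be tested, 1312 (26.5%) passed edgeR's quasi-likelihood F test for unequal change among the transcripts of a gene at an adjusted p below 0.05. Over all genes tested the share was 23.1% (2033 of 8818). In simulated counts more genes without a change passed this test than its adjusted p allows, so the adjusted p-values are too small, the share of false calls here is not known, and calls near 0.05 are the least certain. In the simulation false calls made up a smaller share where a 20-point change was also required. A change of at least 20 percentage points in the mean share of a transcript came with the test in 344 members (6.94%). In 339 of these the shares of the gaining or of the losing transcript at D7 did not overlap those at D0. The 344 were chosen by a test and a size from the same 6 libraries, so this lack of overlap adds no separate support. Another transcript led the gene in all libraries of D7 than in all libraries of D0 in 122 members (2.46%), and 96 of them were also among the 344. Limma's diffSplice and DESeq2 as well as edgeR, a combination chosen after seeing the data, passed 1011 of the 1312 members and 329 of the 344. The largest share change had a median of 13.1 points among members that passed, of 5.55 points among those that did not and of 6.95 points among all members. Another 168 members moved by 20 points or more without passing. Of the tested transcripts of all genes, 1.78% rose and 1.81% fell in share at D7 by the transcript-level test, among them 434 and 447 transcripts of members. Adjusted p-values given below beside transcript shares are those of the gene-level F test, not of the transcript. Some of these transcripts also passed the transcript-level test, such as Coil-201 (adjusted p = 4.38e-07, edgeR). Others did not, such as Ank3-001 (0.96), Itsn1-003 (0.835), Rps24-201 (0.630) and Scrib-002 (0.305).

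The greatest gains among the named changes of main transcript, in Coil and Ash2l, came with another first exon. Coil encodes coilin, the scaffold of Cajal bodies. Coil-201 held 88.6, 89.5 and 77.0% of Coil counts in the D7 libraries, and was at 0 in the 3 D0 libraries, where 3 counts would have made a share of 0.114 to 0.137%. The transcript it replaced, Coil-001, averaged 13.1% ± 7.29 at D7 and 97.3% ± 0.530 at D0 (SD, n = 3 each; adjusted p = 9.96e-08, edgeR). Coil-201 starts 3683 bases downstream of Coil-001 on chromosome 11. Ash2l, a core subunit of the complexes that methylate lysine 4 of histone H3, switched as sharply, with Ash2l-201 at 75.4, 74.8 and 74.7% at D7, against 0, 2.29 and 3.44% at D0. Its start lies 7612 bases downstream of that of Ash2l-002, which averaged 2.94% ± 0.195 at D7 and 87.4% ± 2.32 at D0 (adjusted p = 1.22e-06, edgeR). Both genes were lower as a whole at D7, by log2 changes of -1.47 (SE 0.14) for Coil and -1.30 (SE 0.08) for Ash2l.

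Nr6a1, also called germ cell nuclear factor, is a nuclear receptor known for silencing Pou5f1 as stem cells differentiate. Nr6a1-202, which starts 141702 bases downstream of Nr6a1-201, held 64.8, 53.6 and 60.9% at D7, against 0.000986, 2.504 and 5.69% at D0. The D7 and D0 libraries were far apart (adjusted p = 2.81e-06, edgeR), and the gene itself rose by 1.47 on the log2 scale (SE 0.10). Tiam1, an activator of the small GTPase Rac, had Tiam1-202 at 72.1, 88.5 and 77.6% at D7, against 22.0, 1.45 and 41.9% at D0. The shares did not overlap, but this was a condition of choosing the gene. The spread within D0 was wide and the test was close to its limit (adjusted p = 0.0458, edgeR). The Tiam1 call was lost without D0 replicate 1, without D0 replicate 2 and without each of the D7 replicates.

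**Figure D1:**
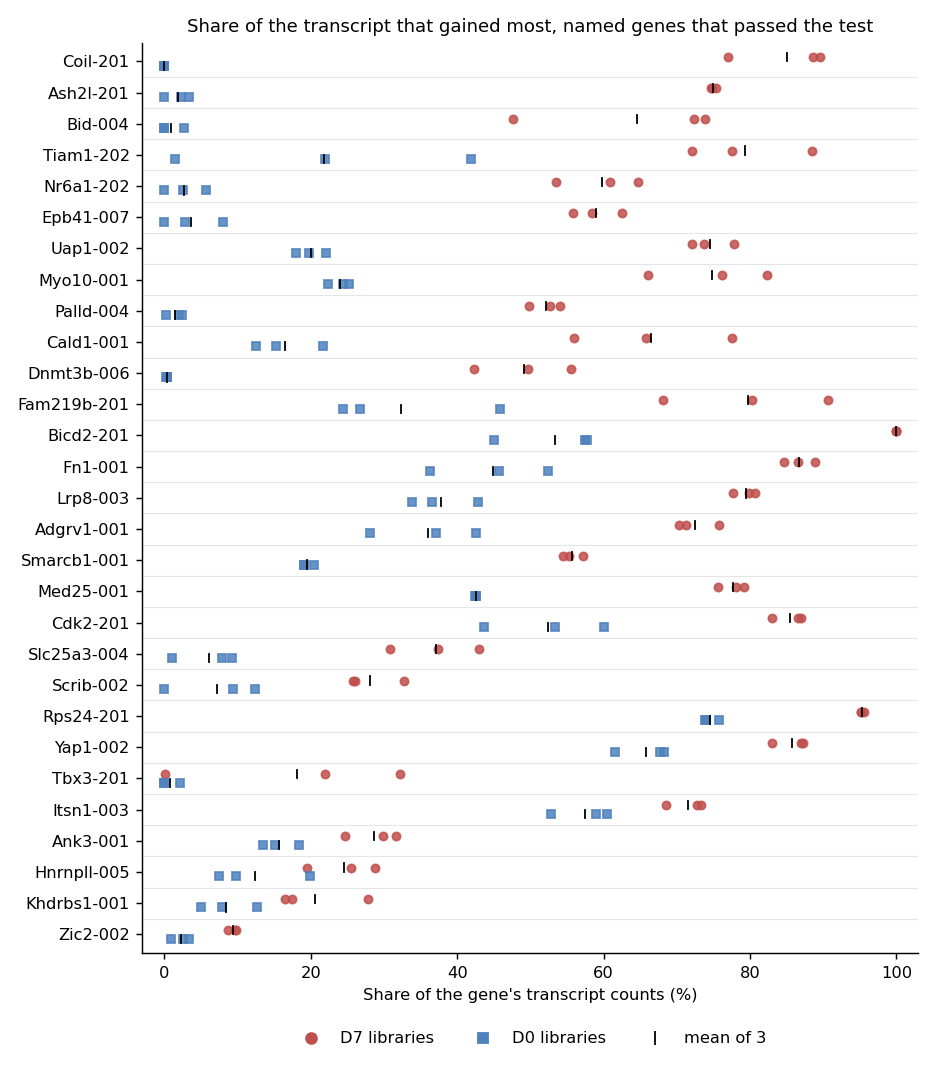
Share of the gene's transcript counts (x axis, %) held by the transcript that gained most, for the 29 named genes that passed the usage test, with 3 D7 libraries (circles) above 3 D0 libraries (squares) and the mean of each as a bar. The groups are apart in every gene except Tbx3 and Hnrnpll, and Coil-201 and Ash2l-201 lie highest in gain.

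Genes of the actin and membrane skeleton formed another list. Among 35 tested members of a cytoskeleton list, 18 passed (51.4%, against 26.5% of all members), 11 of them with 20 points or more (31.4%, against 6.94%) and 7 with another main transcript. Their median largest change was 10.22 points, against 6.95 points over all members. In Myo10, a motor of filopodia, the long Myo10-001 held 66.1, 76.2 and 82.3% at D7, against 24.0% ± 1.46 (SD, n = 3) at D0. The shorter Myo10-004, which starts 130385 bases further downstream, averaged 20.0% ± 7.97 at D7 and 68.7% ± 1.10 at D0 (adjusted p = 3.30e-07, edgeR). A short Myo10 form without the motor domain is known, and the whole gene fell by 2.03 on the log2 scale (SE 0.11).

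Epb41, protein 4.1, which ties spectrin and actin to the membrane, moved to an upstream start. Epb41-007 held 55.8, 62.6 and 58.4% at D7, against 8.00, 0.0110 and 2.76% at D0, and starts 39561 bases upstream of Epb41-009 (adjusted p = 8.20e-10, edgeR). The gene rose by 1.64 on the log2 scale (SE 0.11). Palladin (Palld), an actin crosslinker, likewise moved to a start 168947 bases upstream, with Palld-004 at 49.8, 52.7 and 54.0% at D7, against 0.249, 1.94 and 2.36% at D0 (adjusted p = 4.52e-06, edgeR). Caldesmon (Cald1), which binds actin and myosin, moved the other way along its gene. Cald1-001, which starts 110877 bases downstream of Cald1-015, held 56.0, 65.8 and 77.5% at D7, against 15.28, 21.6 and 12.5% at D0 (adjusted p = 2.93e-10, edgeR). Cald1-015, at 64.8, 45.1 and 58.2% at D0, was at or near 0 in the D7 libraries, and the level of Cald1 as a whole differed by a log2 change of -0.09 (SE 0.17), which did not pass.

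The same list held exon choices. The tropomyosin genes Tpm1 and Tpm2, whose proteins coat actin filaments, each use 1 of a pair of 76-base exons. In Tpm1 the exon that starts at 67032466 was included at 73.2, 74.7 and 71.9% at D7, against 46.0, 38.6 and 41.9% at D0. In Tpm2 the exon that starts at 43518644 was included at 32.12, 28.0 and 34.8% at D7, against 6.42, 7.35 and 5.76% at D0. Inclusion here is the abundance per length of the transcripts that hold an exon, as a percentage of those that hold or skip it. A run of 5 exons of Dst, a large linker of filaments, was included less at D7, at 14.2 to 16.5% for 4 of them, against 60.9 to 65.3% at D0. Filamin A (Flna), the list's highest member that did not pass, had Flna-201 at 70.9, 74.2 and 71.8% at D7, against 70.4, 64.5 and 62.1% at D0 (adjusted p = 0.263, edgeR). The feeder markers given above also differed between the days, at 84.1 to 99.9 CPM at D7 and 745 to 1909 CPM at D0. The part of feeder cells in these switches was not tested.

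A set of 7 exons annotated as coding, joined on one day more than on the other, are shown with their sequence. Their inclusion is that of RNA, and protein was not measured. All lengths are multiples of 3. Capitals mark the exon, and the lower-case letters are the 12 bases of the joined exons on either side, on the strand of the gene, from GENCODE M21 transcripts on GRCm38.
Dnmt3b, chr2:153670849-153670908, plus strand: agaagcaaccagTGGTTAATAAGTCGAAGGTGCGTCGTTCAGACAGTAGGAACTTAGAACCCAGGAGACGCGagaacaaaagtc
Uap1, chr1:170147996-170148046, minus strand: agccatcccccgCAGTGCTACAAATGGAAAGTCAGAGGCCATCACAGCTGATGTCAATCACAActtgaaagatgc
Tet2, chr3:133479342-133479365, minus strand: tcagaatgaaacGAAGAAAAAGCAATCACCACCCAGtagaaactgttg
Cttn, chr7:144450978-144451088, minus strand: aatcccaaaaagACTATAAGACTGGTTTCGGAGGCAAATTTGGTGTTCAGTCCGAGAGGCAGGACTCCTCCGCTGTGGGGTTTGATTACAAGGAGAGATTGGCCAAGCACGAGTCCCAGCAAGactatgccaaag
Cdk2, chr10:128699976-128700119, minus strand: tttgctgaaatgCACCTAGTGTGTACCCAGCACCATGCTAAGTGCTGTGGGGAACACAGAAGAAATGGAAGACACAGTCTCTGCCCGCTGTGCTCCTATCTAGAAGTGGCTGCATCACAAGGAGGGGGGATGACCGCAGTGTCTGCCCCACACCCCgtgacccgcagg
Yap1, chr9:7950492-7950539, minus strand: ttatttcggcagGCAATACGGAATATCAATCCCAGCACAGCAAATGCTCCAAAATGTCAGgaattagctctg
Fn1, chr1:71613763-71614035, minus strand: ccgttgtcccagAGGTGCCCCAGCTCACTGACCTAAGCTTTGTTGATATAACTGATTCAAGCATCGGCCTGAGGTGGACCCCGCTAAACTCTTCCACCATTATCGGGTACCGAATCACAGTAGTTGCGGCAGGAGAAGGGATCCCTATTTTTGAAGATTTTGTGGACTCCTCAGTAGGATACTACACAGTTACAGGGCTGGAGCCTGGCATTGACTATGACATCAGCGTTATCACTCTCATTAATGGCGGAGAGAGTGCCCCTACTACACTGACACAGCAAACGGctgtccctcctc
The first 6 of these exons were included less at D7 and the last was included more.

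Dnmt3b, which lays down DNA methylation de novo, lost the 60-base exon from most of its RNA. Inclusion was 36.5, 40.5 and 32.6% at D7, against 97.47, 97.8 and 97.6% at D0. A pair of exons of 70 and 119 bases in the catalytic region went with it, at the same values at D7 and at 88.1, 87.0 and 84.97% at D0. Dnmt3b forms that lack part of the catalytic region are known. Dnmt3b-006, which lacks all 3 exons, held 55.5, 42.3 and 49.7% of the gene at D7, against 0.348, 0.318 and 0.295% at D0 (adjusted p = 2.30e-15, edgeR). Dnmt3b-002, at 28.6, 20.4 and 9.19% at D0, was at 0 in the 3 D7 libraries, where 3 counts would have made a share of 0.203 to 0.213%. The gene as a whole fell by 2.36 on the log2 scale (SE 0.13).

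Uap1 makes UDP-N-acetylglucosamine, and its known forms differ by the insert shown. The exon was included at 21.4, 14.6 and 20.3% at D7, against 74.1, 75.2 and 75.6% at D0. Uap1-002, which lacks it, held 72.1, 77.8 and 73.8% of the gene at D7, against 22.13, 19.8 and 18.0% at D0 (adjusted p = 7.92e-08, edgeR). The shares of Uap1-002 lay within 6 points of each other on each day, and the level of the gene did not pass at an adjusted p of 0.0622 (log2 change -0.24, SE 0.10, edgeR). A 48-base form of the same exon, with another end, fell in the same direction, at 3.80 to 7.06% at D7, against 39.2 to 57.4% at D0.

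Tet2, which oxidizes methylated cytosine, carried its 24-base exon at 27.2, 47.5 and 68.3% at D7, against 84.5, 88.6 and 95.6% at D0. The D7 libraries were spread widely but stayed below every D0 library (gene adjusted p = 2.38e-04, edgeR). Cortactin (Cttn), which binds branched actin, has a 111-base exon that encodes a unit of its repeats. Its inclusion was 19.6, 21.5 and 21.7% at D7, against 60.8, 56.2 and 60.1% at D0 (gene adjusted p = 4.32e-08, edgeR). Tet2, Cttn and the exons of Tpm1, Tpm2 and Dst are members of the lists that were chosen for the text after their values were seen.

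Cdk2, a kinase of the cell cycle, held its 144-base exon at 12.4, 16.2 and 12.7% at D7, against 45.1, 54.8 and 38.5% at D0 (adjusted p = 4.69e-05, edgeR). Yap1, the coactivator controlled by the Hippo pathway, held its 48-base exon at 23.8, 23.2 and 21.9% at D7, against 39.8, 37.9 and 39.7% at D0 (adjusted p = 0.00106, edgeR). For both genes every D7 library lay below every D0 library. Their levels as a whole rose little, by log2 changes of 0.30 (SE 0.09) for Cdk2 and 0.30 (SE 0.11) for Yap1.

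Fibronectin (Fn1), the matrix glycoprotein, was included with the 273-base exon, its extra domain B, at 87.8, 85.03 and 81.9% at D7, against 50.5, 44.2 and 35.1% at D0. The 270-base exon, extra domain A, followed at 92.3, 88.8 and 88.9% at D7, against 74.2, 70.9 and 60.8% at D0. Within D0 the inclusion of both exons was lowest in replicate 3, where the feeder markers were highest at 1909 CPM, and highest in replicate 1, where they were lowest at 745 CPM. The gene passed at an adjusted p of 3.52e-14 (edgeR) and fell as a whole by 3.46 on the log2 scale (SE 0.13), with 247 CPM at D7 and 2652 CPM at D0. The part of the feeder cells in the Fn1 change was not tested.

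**Figure D2:**
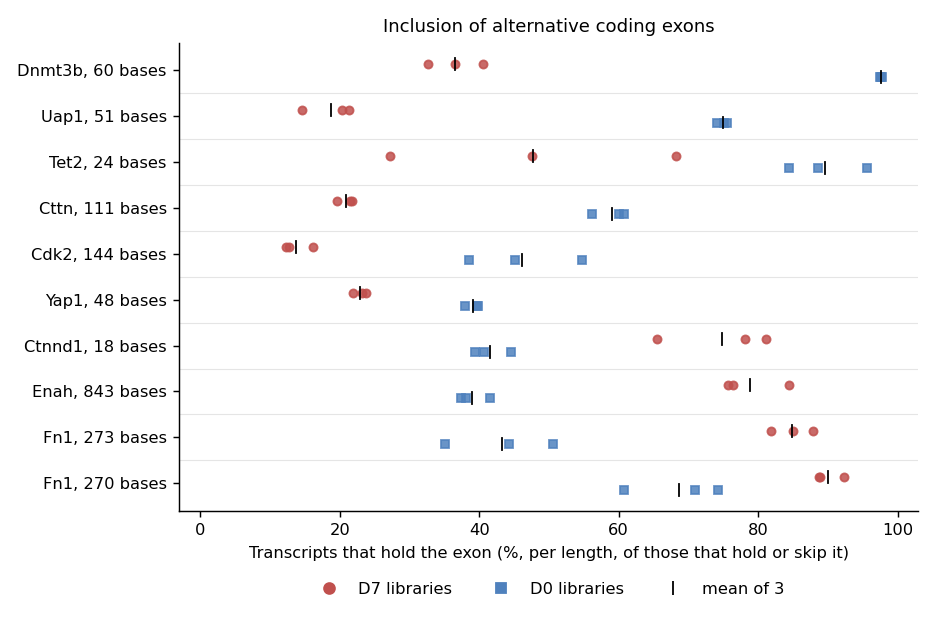
Inclusion of 10 alternative coding exons (x axis, % per length of the transcripts that hold or skip the exon), with 3 D7 libraries (circles) above 3 D0 libraries (squares) and the mean of each as a bar. The exons of Dnmt3b, Uap1, Tet2, Cttn, Cdk2 and Yap1 lie lower at D7, and that of Ctnnd1, the 843-base exon of Enah and the pair of Fn1 lie higher, with no overlap between the days.

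Across the members, 2776 coding exons in 1652 genes were held by some transcripts in use and skipped by others. Inclusion was at least 20 points higher at D7, with no overlap of libraries, for 83 exons (2.99%) and at least 20 points lower for 117 (4.21%), in 152 genes. Passing the usage test was not a condition here, and 156 of these 200 exons, in 110 genes, lay in members that passed. Of all 200 exons 69.0% had a length that is a multiple of 3, against 56.7% of the exons that did not move so far. The median lengths were 105 and 98 bases. Among 191 exons of at most 27 bases, 8 moved (4.19%, against 7.205% of all coding exons), 5 of them higher at D7 and 3 lower. The length of all 8 was a multiple of 3, as it was for 79.8% of the short exons that did not move. Where the gaining and losing transcripts of a gene with a change of 20 points were both coding and differed by a single exon, the exon stood in the transcript of D7 in 15 genes and in that of D0 in 30. Among members that did not pass, the same split was 154 and 208.

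Targets of the epithelial splicing program passed the usage test often, but their exons moved at a share close to that of all coding exons. Of 21 tested members of that list, 14 passed (66.7%, against 26.5% of all members), and 0 had another main transcript. A change of 20 points or more came with the test in 5 of them (23.8%, against 6.94%), and the median largest change was 12.5 points. Of 58 alternative coding exons of the list, 5 moved by 20 points without overlap (8.62%, against 7.205%), in 3 genes. In Enah, which extends actin filaments at cell edges, a 63-base exon known from epithelial cells was included at 1.14, 5.80 and 0.353% at D7, against 31.3% ± 1.16 (SD, n = 3) at D0 (gene adjusted p = 9.59e-07, edgeR). The 843-base exon of Enah went the other way, at 84.5, 76.4 and 75.6% at D7, against 41.6, 37.4 and 38.1% at D0. The 18-base exon of Ctnnd1, the catenin p120 of cell junctions, went up, at 78.1, 81.1 and 65.5% at D7, against 39.4, 44.5 and 40.7% at D0 (gene adjusted p = 3.16e-05, edgeR). Scrib, a polarity scaffold, had Scrib-002 at 26.0, 25.8 and 32.7% at D7, against 1.25e-07, 12.34 and 9.37% at D0 (adjusted p = 0.00590, edgeR), a call that was lost without D7 replicate 2. Rps24, a protein of the small ribosomal subunit, had Rps24-201 at 95.2, 95.5 and 95.2% at D7, against 75.7, 74.1 and 73.8% at D0 (adjusted p = 7.50e-08, edgeR). By annotation this form ends 3 bases into an exon that is 20 bases long and internal in Rps24-202. Rps24 has processed copies that can share its reads, so its values are less certain. Afadin, listed as Mllt4, did not pass (adjusted p = 0.210, edgeR), with Mllt4-006 at 16.0, 10.9 and 17.1% at D7, against 9.52, 7.12 and 5.38% at D0. Both Enah exons and the Ctnnd1 exon were chosen for the text after their values were seen.

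The RNA of splicing regulators was also compared at the gene level, where 66.9% of 17115 tested genes passed. Of 64 regulators tested, 29 were higher and 10 lower at D7, together a smaller share than among all genes. Esrp1 had 4.96, 4.63 and 5.03 CPM at D7, against 97.49, 95.7 and 80.3 CPM at D0, a log2 change of -4.37 (adjusted p = 5.76e-08, edgeR). Its paralog Esrp2 fell by 3.41 on the same scale. Ptbp2, the neural relative of Ptbp1, had 279, 307 and 309 CPM at D7, against 31.9, 29.8 and 27.6 CPM at D0, a log2 change of 3.23 (adjusted p = 2.82e-08, edgeR). Celf2 rose by 2.91, Nova1 by 2.77 and Khdrbs3 by 2.38, and Srrm4, which directs neural microexons, by 1.92 with D7 libraries at 29.9, 11.5 and 7.14 CPM. Ptbp1 itself, at 755, 739 and 661 CPM at D7, against 603, 708 and 886 CPM at D0, did not pass at the gene level (adjusted p = 0.351, edgeR). The regulators named here were singled out after their values were seen, and no link between a regulator and an exon was tested.

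As members themselves, 21 of 54 tested splicing regulators passed for usage (38.9%, against 26.5% of all members), but 1 of them with 20 points or more (1.85%, against 6.94%). Their median largest change was 6.91 points, against 6.95 points over all members. The gene that passed with 20 points, Hnrnpll, gave less of its coding Hnrnpll-001, at 54.3, 60.1 and 51.4% at D7, against 83.2, 72.8 and 80.1% at D0 (adjusted p = 0.0325, edgeR). Its call was lost without any of the 3 D7 replicates. Khdrbs1 (Sam68) gave more of Khdrbs1-001, annotated for nonsense-mediated decay, at 27.8, 17.5 and 16.5% at D7, against 5.05, 7.83 and 12.6% at D0 (adjusted p = 0.00146, edgeR). The 78-base exon of Ptbp1 was included at 38.5, 36.0 and 38.0% at D7, against 56.0, 52.8 and 51.3% at D0 (gene adjusted p = 4.11e-05, edgeR). Hnrnpk, the most abundant member that did not pass (adjusted p = 0.504, edgeR), had Hnrnpk-009 at 6.57, 5.04 and 9.15% at D7, against 3.73, 4.71e-04 and 0% at D0. Without D0 replicate 1 Hnrnpk did pass (adjusted p = 2.67e-12, edgeR). Hnrnpk-009 itself passed the transcript-level test with all 6 libraries (adjusted p = 0.0128, edgeR).

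Of 31 tested neural splicing targets, 11 passed (35.5%, against 26.5% of all members), with a median largest change of 5.96 points, against 6.95 points over all members, and Apbb2 alone passed with 20 points or more. Intersectin 1 (Itsn1), an endocytic scaffold, had Itsn1-003 at 68.6, 73.2 and 72.8% at D7, against 52.8, 60.5 and 59.0% at D0 (adjusted p = 7.66e-05, edgeR). Its 15-base exon, a known microexon of neurons, was included at 23.5, 15.9 and 17.4% at D7, against 36.0, 33.7 and 29.3% at D0. Ankyrin G (Ank3), which builds the axon initial segment, had Ank3-001 at 24.6, 29.8 and 31.6% at D7, against 18.4, 13.5 and 15.15% at D0 (adjusted p = 0.0224, edgeR). The Ank3 call was lost without D0 replicate 3, without D7 replicate 2 and without D7 replicate 3. Ptprf, a receptor phosphatase of axons, did not pass (adjusted p = 0.0819, edgeR), with Ptprf-001 at 87.6, 87.1 and 91.2% at D7, against 85.9, 86.9 and 84.6% at D0.

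**Figure D3:**
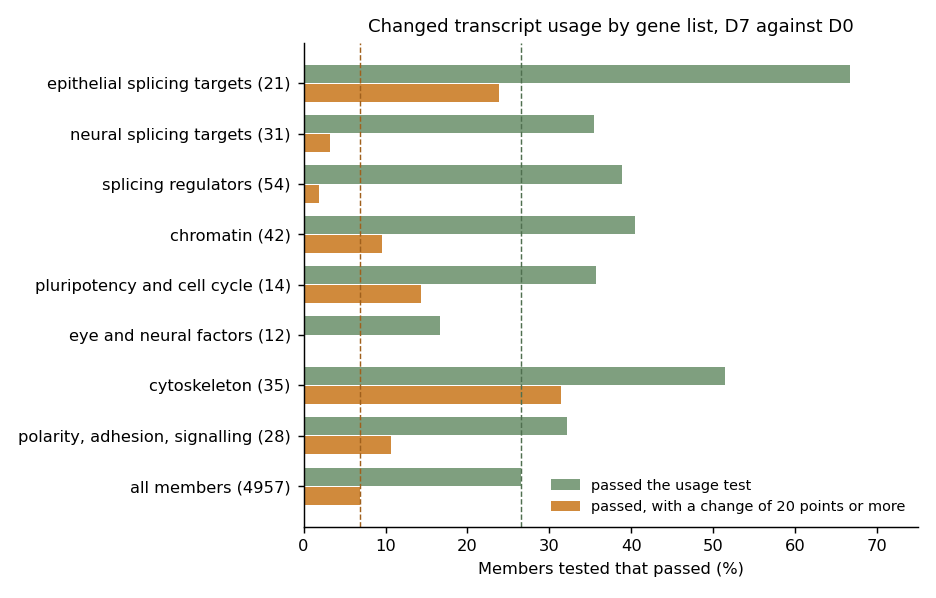
Members tested in each list that passed the usage test (green) and that passed with a change of at least 20 points (orange), in % on the x axis, with the number tested in brackets and dashed lines at the values of all members. Epithelial splicing targets (66.7%) and cytoskeleton genes (51.4%) lie furthest above 26.5%, and eye and neural factors (16.7%) lie below it.

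Chromatin genes passed in 17 of 42 tested members (40.5%, against 26.5% of all members), 4 of them with 20 points or more (9.52%, against 6.94%). Their median largest change was 6.08 points, against 6.95 points over all members. Beside Dnmt3b and Tet2 stood Smarcb1, a core subunit of the BAF remodelling complex. Its leading coding forms differ by 27 bases at the edge of an internal exon. Smarcb1-001, the longer form, held 54.5, 57.2 and 55.3% at D7, against 19.02, 20.4 and 19.2% at D0 (adjusted p = 9.09e-08, edgeR). The level of Smarcb1 as a whole was close on the days, with a log2 change of -0.02 (SE 0.11). Arid1a, another BAF subunit and the most abundant member of the list that did not pass (adjusted p = 0.671, edgeR), had Arid1a-002 at 55.2, 52.8 and 46.0% at D7, against 38.9, 50.6 and 55.8% at D0.

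Of 14 tested members of a list of pluripotency and cell cycle genes, 5 passed (35.7%, against 26.5% of all members), Cdk2 and Yap1 by the most. The median largest change of the list was 7.79 points, against 6.95 points over all members. Trim28, a corepressor, did not pass (adjusted p = 0.447, edgeR), with Trim28-001 at 88.2, 89.6 and 88.1% at D7, against 89.0, 89.8 and 92.5% at D0. Of 57 listed eye and neural transcription factors, 12 were members. Of these, 2 passed (16.7%, against 26.5% of all members), and none passed with 20 points or more. Tbx3 passed at an adjusted p of 0.0310 (edgeR) but Tbx3-201 overlapped between the days, at 0.116, 32.23 and 22.0% at D7, against 0, 2.17 and 9.45e-05% at D0, and the call was lost without 4 of the 6 libraries in turn. Zic2, a factor of the neural plate, had the short Zic2-002 at 8.73, 9.80 and 9.65% at D7, against 3.40, 2.57 and 0.891% at D0 (adjusted p = 0.0204, edgeR), also lost without 4 of the 6 libraries in turn. Hmga1, a chromatin protein of dividing cells, did not pass (adjusted p = 0.383, edgeR), with Hmga1-001 at 41.0, 41.2 and 44.6% at D7, against 42.4, 36.5 and 38.4% at D0.

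Genes of polarity, adhesion and signalling passed in 9 of 28 tested members (32.14%, against 26.5% of all members), 3 of them with 20 points or more (10.7%, against 6.94%). Their median largest change was 7.01 points, against 6.95 points over all members. Lrp8, a receptor of reelin, followed Fn1 in size. Lrp8-003 held 77.7, 79.8 and 80.7% at D7, against 42.8, 36.6 and 33.8% at D0 (adjusted p = 1.07e-07, edgeR). A 72-base exon of Vegfa, the vascular growth factor, was included at 8.18, 9.13 and 5.75% at D7, against 43.2, 38.4 and 36.3% at D0 (gene adjusted p = 4.58e-07, edgeR), and was chosen after its values were seen. Beta-catenin (Ctnnb1), the most abundant member that did not pass (adjusted p = 0.194, edgeR), had Ctnnb1-010 at 1.63, 0.620 and 0.301% at D7, against 0.243, 0.348 and 0.253% at D0.

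Other named genes changed their ends or kept an intron. Bid encodes a protein that triggers cell death. Bid-004, annotated for nonsense-mediated decay, held 47.7, 72.4 and 73.8% at D7, against 2.63, 0 and 0.0168% at D0, while the coding Bid-001 averaged 31.4% ± 14.02 at D7 and 95.1% ± 2.06 at D0 (adjusted p = 0.00118, edgeR). Med25, a subunit of Mediator, had Med25-001 at 75.6, 79.2 and 78.1% at D7, against 42.5, 42.6 and 42.5% at D0, with an end 2626 bases further downstream than in Med25-006 (adjusted p = 5.37e-05, edgeR). Adgrv1, a very large adhesion receptor of the Usher complex, had the full-length Adgrv1-001 at 75.8, 71.3 and 70.3% at D7, against 37.1, 42.6 and 28.1% at D0 (adjusted p = 2.38e-07, edgeR). Its short Adgrv1-004, which ends 482358 bases upstream, averaged 3.04% ± 1.25 at D7 and 19.6% ± 4.17 at D0.

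Bicd2, an adaptor of the dynein motor, used Bicd2-201 alone at D7, at 100.0% in the 3 libraries, against 57.5, 57.7 and 44.97% at D0 (adjusted p = 5.64e-07, edgeR). This form keeps the introns that Bicd2-202 removes from the first and last exons. In Slc25a3, the mitochondrial phosphate carrier, Slc25a3-004 held 43.0, 37.4 and 30.8% at D7, against 1.10, 9.19 and 7.93% at D0 (adjusted p = 7.09e-05, edgeR). It keeps an intron that Slc25a3-001 removes. Slc25a3-008, Slc25a3-003 and Slc25a3-006, annotated as retained introns, fell in mean share, the first from 38.4% at D0 to 25.8% at D7. Fam219b included a 49-base exon less, at 19.5, 31.5 and 9.17% at D7, against 75.3, 73.0 and 53.7% at D0, with Fam219b-201 at 80.3, 68.1 and 90.7% at D7, against 24.4, 26.7 and 45.9% at D0 (adjusted p = 0.00187, edgeR). The levels of Bicd2 and Fam219b did not pass at the gene level, with log2 changes of -0.08 (SE 0.12) and 0.18 (SE 0.17).

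Of the 340 members with a change of 20 points whose leading pair of transcripts stands in GENCODE M21, 43.2% differed in the first exon, 35.0% in a skipped internal exon, 18.8% in the last exon and 13.8% in a retained intron, with some in more than 1 class. Among 3592 members that did not pass, the shares were 44.99, 29.0, 27.9 and 17.3%. Both transcripts were protein coding in 70.0% of the 340 and in 56.2% of those that did not pass. The gaining transcript was the longer one in 222 of 344 genes and the losing one in 122, while members that did not pass split into 1865 and 1774. RNA quality and read position along transcripts, which could move with length, were not tested. Averaged over members, transcripts annotated as retained introns held 8.06, 7.52 and 8.12% at D7, against 7.50, 7.096 and 6.30% at D0, so that each D7 library lay just above each D0 library.

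Members with a large usage change had a small gene-level change less often than members that did not pass; this difference was not tested. Of the 344 members, 135 (39.2%) had a gene-level log2 change within 0.5 of 0, against 1942 of 3645 (53.3%) of those that did not pass. The gene-level test passed in 73.3% of the 344 and in 63.0% of those that did not pass for usage. Shares of counts give long transcripts more weight, and on shares of counts per length 264 of the 344 members still moved by 20 points. Of the 122 changes of main transcript, 51 were also changes by counts per length, among them Coil, Ash2l, Nr6a1, Tiam1, Uap1, Myo10, Epb41, Cald1, Dnmt3b, Smarcb1 and Fam219b but not Bid, Palld, Slc25a3 or Ank3. Per length, Adgrv1-001 held 26.09% at D7 and 5.88% at D0, Ank3-001 13.25% at D7 and 6.28% at D0, Rps24-201 97.3% at D7 and 83.95% at D0, and Zic2-002 24.85% at D7 and 6.88% at D0, differences that were over 1.5 times smaller for the first 3 and larger for Zic2-002 than by counts.

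**Figure D4:**
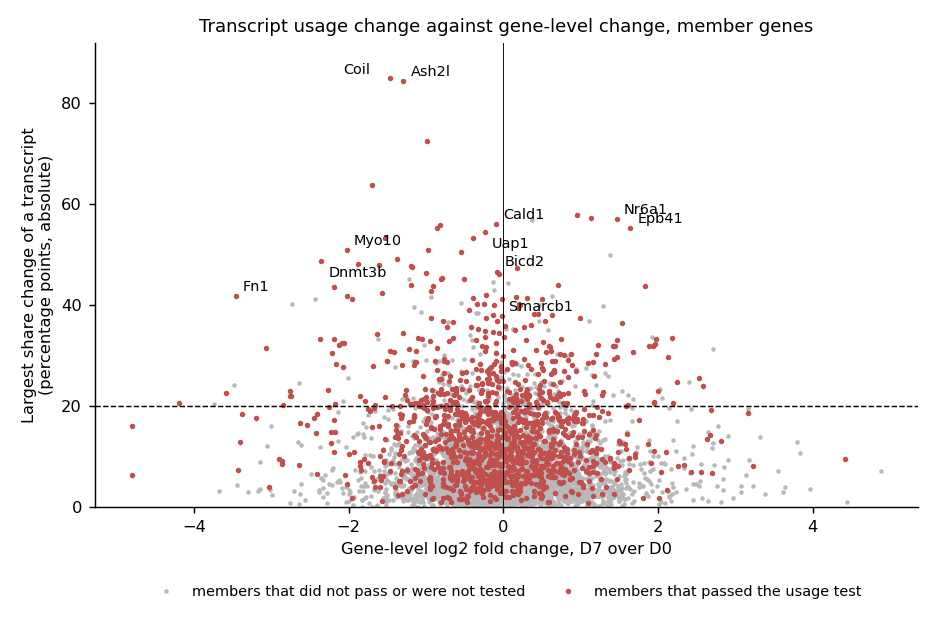
Largest change in the share of a transcript (y axis, percentage points, absolute) against the gene-level log2 change of D7 over D0 (x axis) for member genes, with those that passed the usage test in red and the dashed line at 20 points. Genes above the line spread on both sides of 0, with Uap1, Cald1, Bicd2 and Smarcb1 near 0 and Fn1, Dnmt3b and Myo10 well below it.

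The D7 forms were followed through the other days of the series. The libraries of these days stand apart in the share of Rpl3 counts given to its processed copies, which was 19.6 to 25.4% at D7 and 16.8 to 18.26% at D0. It was 12.0 to 31.9% in replicate 2 of D10 to D25 and 71.03 to 86.4% in the other libraries, those of D4 and D32 included. The part of this split in the shares by day was not tested. The gaining transcripts of 27 named genes were used, those that passed without overlap, and each library was placed between the mean share at D0 (0) and at D7 (1). The median position was 0.552, 0.560 and 0.692 in D4 replicates 1, 2 and 3, between 0.848 and 1.00 in every library from D10 to D25, and 0.837, 0.748 and 0.921 at D32. D4 replicate 3 stood nearer to D7 than its day in several genes, with Dnmt3b-006 at 1.70, 1.41 and 31.2% in the D4 replicates and Uap1-002 at 23.9, 24.7 and 46.3%. Coil-201 and Ash2l-201 were in place by D4, at 87.3, 87.7 and 82.8% and at 67.0, 78.5 and 70.5%. Itsn1-003 fell to 10.8, 10.23 and 6.04% by D32, below its 52.8 to 60.5% at D0. Nr6a1-202 varied between libraries, at 0.0786, 15.7 and 1.58e-07% at D10, where replicate 2 alone held it above 1%, but at 48.1, 52.4 and 47.3% at D25.

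**Figure D5:**
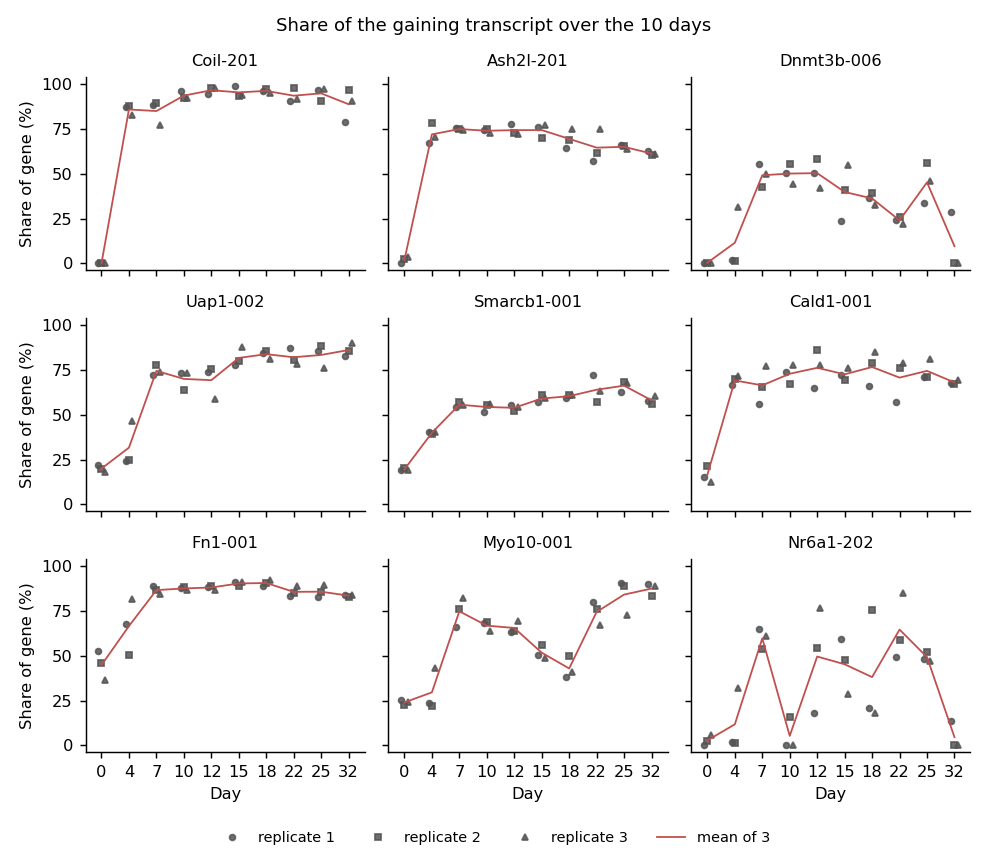
Share of the gene (y axis, %) held by 9 gaining transcripts at each of the 10 days (x axis, days in order and equally spaced), with 1 point per library and a line through the mean of 3. Coil-201, Ash2l-201 and Cald1-001 reach their later level at D4, Uap1-002, Myo10-001 and Dnmt3b-006 reach it at D7, and Nr6a1-202 varies widely after D7.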

How the data were processed

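The libraries were strand-marked poly(A) RNA-seq of RNA with an integrity number above 8.0, per the labels' protocols. The authors deposited estimated counts per transcript and per gene; Trimmomatic 0.36, kallisto 0.42.4, edgeR and GRCm38.p4 are named in the submitters' processing notes. The step to genes and the use of strand in counting are not given in the sources used here. Kallisto divides reads shared by like transcripts or processed copies, so shares of such genes are uncertain.

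Shares were taken over transcript sums per gene. Counts were rounded and filtered with filterByExpr (minimum count 10, total 15), which kept 43099 transcripts, scaled by TMM, and fitted with edgeR 4.0.16 in R 4.3.3 (glmQLFit, diffSpliceDGE; Benjamini-Hochberg over 8818 genes); gene levels used glmQLFTest on the gene table. Tested on simulated data, the usage test passed more unchanged genes than its adjusted p allows. Limma 3.58.1 and DESeq2 1.42.0 were alternatives. Floors (3 counts) cover counting error only. The SDs, SEs and p-values rest on the spread between these libraries, which may be technical. The same-number libraries of D7 and D0 did not deviate together, so replicates were not paired. Members and lists were chosen with earlier results of these data known. Named genes were the 10 largest gains among main-transcript switches whose gaining transcript did not overlap between the days. To these were added 2 called genes and the most abundant uncalled gene per list, and 2 per structure class. The 3 largest gains with a log2 gene change within 0.5 of 0 were also named. Outside the lists, predicted genes, ribosomal protein genes, histone genes, pseudogenes and symbols that several identifiers share were passed over. In the 2 tables used, 6 columns had no sample here and were not used, and the CPM table was not used.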

Additional observations from a re-analysis of the deposited data

How the results depend on the processing

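With transcript p-values combined by Simes' method, 588 members passed, 222 with 20 points or more and 71 with another main transcript. The replicate block, which takes equal replicate numbers as pairs, left 655, 241 and 82; same-number deviations correlated at -0.177, -0.0475 and -0.202, so the numbers do not pair the libraries. Limma on logit shares passed 757. Leaving out 1 library gave 814 to 1225 members, lowest without D0 replicate 2 (814) and D7 replicate 2 (854), 266 to 371 with 20 points and 100 to 148 switches. Limma's diffSplice (1613), DESeq2 (1548), no filter beyond 1 count (974) and a fit of all 30 libraries (1112) stayed within 1.5 times of 1312, and 1011 members passed in edgeR, limma and DESeq2 together, a set chosen after seeing the data. The Arid1a-002 difference ran from -1.82 points without D0 replicate 1 to 6.61 points without D0 replicate 3 and passed in none of these fits. Among 37 named genes the calls of 6 were lost under the block and of 6 without D7 replicate 2; the cause was not tested. Depth limits low transcripts: in Coil, 3 counts make 0.137% of the gene in D0 replicate 1.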
